A study of Mus musculus with 4 samples.

Results

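The 6 granzyme genes Gzmb, Gzmc, Gzmd, Gzme, Gzmf and Gzmg were followed through single CD8+ T cells from mouse melanoma tumours. They were taken by symbol from the 32285 genes of each count matrix, and each symbol matched 1 gene. All 6 lie in 1 gene cluster on chromosome 14, and all 6 were present in each of the 4 matrices. The study profiled CD8+ T cells sorted from B16F10 tumours, a transplantable melanoma line, grown in C57BL/6J mice 6-8 weeks old. Of the 4 libraries, 2 carry the label sgScr (a scrambled control guide) and 2 the label sgArid1a (a guide against Arid1a, which encodes part of a chromatin remodelling complex). All 4 were sorted in the same way as viability dye negative, CD45+, CD3+ and CD8+ cells, and no drug treatment is given for either group. The labels state neither which cells carried the guide nor whether the 2 replicates came from separate mice, so that each p-value is measured against a sample-to-sample spread that may be only technical.

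Granzymes are serine proteases that cytotoxic lymphocytes store in secretory granules and deliver into target cells through pores formed by perforin. Granzyme B cleaves after aspartate, activates caspases and is the main trigger of granzyme-driven apoptosis. Its gene heads a tandem family that in the mouse continues with granzymes C to G, which are less well studied and are induced in strongly stimulated T cells and in activated natural killer cells.

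In the GENCODE M21 annotation (GRCm38) the 6 genes lie on the minus strand between 56117626 and 56262260, a span of 144635 bp, in the coordinate order Gzme, Gzmd, Gzmg, Gzmf, Gzmc and Gzmb. Each has 5 exons. Gzmb (ENSMUSG00000015437) lies at chr14:56258838-56262260. Gzmc (ENSMUSG00000079186) lies at chr14:56231441-56234656 and Gzmf (ENSMUSG00000015441) at chr14:56205263-56211417. Gzmg (ENSMUSG00000040284) lies at chr14:56156582-56159579, Gzmd (ENSMUSG00000059256) at chr14:56129556-56132608 and Gzme (ENSMUSG00000022156) at chr14:56117626-56120625. The coding sequences form a graded family: Gzmd and Gzme were 93.3% identical, Gzme and Gzmg 89.6%, Gzmf and Gzmg 86.9%, and Gzmb and Gzmc 76.3%. Gzmb was 65.4% to 68.4% identical to Gzmd, Gzme, Gzmf and Gzmg.

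This likeness bears on how the reads can be assigned. Of the 90-base windows of each transcript, none of the 1347 of Gzmb and none of the 805 of Gzmc occurred in another transcript of the annotation. The shares were 2.17% for Gzmd, 0.967% for Gzme and 1.59% for Gzmg. In Gzmf 65 of 830 windows (7.83%) were shared, all of them with the overlapping antisense transcript Gm4022. With 50-base windows the shares were 0% for Gzmb, 4.14% for Gzmc and between 19.4% and 21.9% for the other 4. Among the 50-base windows that start in the first 300 bases, the end that a 5′ kit reads, 123 of Gzmf, 89 of Gzmg, 80 of Gzmd and 51 of Gzme were shared. The Gzmf count does not separate windows shared with Gzmd or Gzmg from those shared with Gm4022. All 65 shared 90-base windows of Gzmf start in these 300 bases, and none of them occurred in another member. The levels of Gzmd, Gzme, Gzmf and Gzmg are therefore uncertain where the split between them matters, and Gzmb and Gzmc are the members whose reads are best separated.

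The 250 bases before each RefSeq start (GRCm38.p6, minus strand, written 5′ to 3′) are shown because the genes were read in the same samples and at times in the same cells, while the sequences before them fall into unlike groups. They are chr14:56262335-56262584 for Gzmb, chr14:56234658-56234907 for Gzmc, chr14:56132594-56132843 for Gzmd, chr14:56120626-56120875 for Gzme, chr14:56211408-56211657 for Gzmf and chr14:56159580-56159829 for Gzmg. Capitals mark every match, on either strand, to 4 motifs: TGANTCA (AP-1), TGTGGT (Runx, read as ACCACA where the match is on the other strand), GGTGTGA (T-box) and TGACGTCA (cyclic AMP response element).
Gzmb: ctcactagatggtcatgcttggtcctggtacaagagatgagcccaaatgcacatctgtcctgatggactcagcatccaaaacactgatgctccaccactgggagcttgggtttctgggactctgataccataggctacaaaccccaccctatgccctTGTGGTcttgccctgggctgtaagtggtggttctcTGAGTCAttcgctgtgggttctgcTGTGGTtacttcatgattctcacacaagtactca
Gzmc: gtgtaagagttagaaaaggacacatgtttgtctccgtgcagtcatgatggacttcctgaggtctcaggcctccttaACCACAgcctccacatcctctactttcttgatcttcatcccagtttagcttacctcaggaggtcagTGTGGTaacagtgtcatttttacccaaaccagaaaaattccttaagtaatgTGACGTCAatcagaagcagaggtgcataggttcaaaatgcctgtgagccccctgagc
Gzmd: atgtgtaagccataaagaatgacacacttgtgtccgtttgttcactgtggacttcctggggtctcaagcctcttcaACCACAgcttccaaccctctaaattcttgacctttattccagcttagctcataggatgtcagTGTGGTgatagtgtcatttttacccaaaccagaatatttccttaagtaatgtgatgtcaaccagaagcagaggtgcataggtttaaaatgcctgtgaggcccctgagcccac
Gzme: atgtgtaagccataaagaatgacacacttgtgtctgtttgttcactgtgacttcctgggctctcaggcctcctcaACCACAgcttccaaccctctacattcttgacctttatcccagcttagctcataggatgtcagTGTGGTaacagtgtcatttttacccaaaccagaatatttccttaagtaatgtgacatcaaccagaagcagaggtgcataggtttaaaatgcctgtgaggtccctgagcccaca
Gzmf: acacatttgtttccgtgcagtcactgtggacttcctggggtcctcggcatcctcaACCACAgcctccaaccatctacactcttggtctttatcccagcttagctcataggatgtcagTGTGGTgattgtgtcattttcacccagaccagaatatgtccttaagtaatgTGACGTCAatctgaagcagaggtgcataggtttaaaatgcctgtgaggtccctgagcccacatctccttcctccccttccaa
Gzmg: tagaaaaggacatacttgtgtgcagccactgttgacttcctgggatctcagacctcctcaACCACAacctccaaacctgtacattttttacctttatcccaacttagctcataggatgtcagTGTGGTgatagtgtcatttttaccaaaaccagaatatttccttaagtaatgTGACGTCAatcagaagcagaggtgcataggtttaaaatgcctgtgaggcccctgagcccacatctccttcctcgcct

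The Runx letters were present before all 6 genes, 2 matches each, against 14% of 32851 mouse promoters of the same length. In Gzmc, Gzmd, Gzme, Gzmf and Gzmg 1 match faced each way, whereas both matches of Gzmb were on the gene's strand. The AP-1 letters occurred only before Gzmb, 58 bases before the start, against 6.75% of all promoters. The cyclic AMP response element occurred before Gzmc, Gzmf and Gzmg, against 1.55% of all promoters. The T-box letters occurred before none of the 6, against 3.33% of all promoters. A match describes letters and not a bound site, and the motifs do not overlap each other. By alignment, the Gzmd and Gzme promoters were 94.8% identical and those of Gzmf and Gzmg 82.2%. That of Gzmb was only 44.1% to 47.5% identical to the others. The RefSeq starts of Gzmb, Gzmc, Gzmd and Gzmf differ from the GENCODE starts given above, and for Gzmd and Gzmf the printed sequence runs into the GENCODE gene.

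After filtering, 38316 of 39473 barcodes were kept, and 38183 of them were used as T cells, between 7150 and 12738 per library. The unit throughout is the unique molecular identifier (UMI) count, 1 per captured RNA molecule, and levels are given as UMIs of the gene per 1000000 UMIs of the same cells (CPM). Median depth per T cell ran from 2401 UMIs in sgArid1a replicate 1 to 4016 in sgArid1a replicate 2. Between 0.917% and 2.07% of barcodes were shared between libraries. Arid1a itself stood at 85.0 and 93.7 CPM in sgScr and at 74.2 and 72.5 CPM in sgArid1a, a log2 difference of -0.26 ± 0.06 (SE, edgeR adjusted p = 0.00417). Without sgScr replicate 2 the adjusted p was 0.101. Over the T cells macrophage genes summed to 123 and 123 CPM in sgScr and to 168 and 174 CPM in sgArid1a. The highest of them was Cst3, at a mean of 135 CPM over the 4 libraries. Dendritic cell genes summed to 29.5 and 34.9 against 76.0 and 75.2 CPM. Natural killer genes summed to 81.8 and 84.0 against 119 and 112 CPM, with none of 7 at 0. Eomes, the highest of these, was itself lower in sgArid1a, at 52.0 and 55.8 against 43.0 and 44.3 CPM. Genes of CD4 and regulatory T cells, led by Ikzf2, summed to 75.2 and 89.0 against 145.7 and 135 CPM. The part of these marker genes in the results was not tested. In every comparison a gene was called when edgeR's quasi-likelihood test on summed UMIs gave a Benjamini-Hochberg adjusted p under 0.05 over all genes tested.

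Over all T cells the 6 genes were higher in both sgArid1a libraries than in both sgScr libraries, and all 6 were called. By UMIs, which count a molecule once whatever its length, the level of Gzmb was by far the highest, followed by Gzmc and Gzmf, with Gzmd and Gzme close together and Gzmg nearly absent outside 1 library. Of 12781 genes tested, 28.1% were called higher in sgArid1a and 35.1% had groups that did not overlap in this direction, so that a call of this kind was common. The median log2 difference over all genes tested was -0.02.

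Gzmb, the caspase-activating protease, stood at 151 and 164 CPM in sgScr and at 425 and 489 CPM in sgArid1a. The groups did not overlap, and the log2 difference was 1.56 ± 0.07 (SE, n = 2 per group, edgeR adjusted p = 1.52e-09). Gzmc, its nearest relative, stood at 18.7 and 10.8 CPM in sgScr and at 77.3 and 159 CPM in sgArid1a. sgArid1a replicate 2 stood well above sgArid1a replicate 1, and both were above the sgScr libraries. The log2 difference was 3.02 ± 0.26 (edgeR adjusted p = 4.72e-07).

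Gzmf stood at 6.84 and 5.61 CPM in sgScr and at 28.8 and 46.2 CPM in sgArid1a, a log2 difference of 2.62 ± 0.17 (edgeR adjusted p = 3.22e-08). Gzme stood at 3.60 and 1.09 CPM against 8.47 and 21.7 CPM, a difference of 2.73 ± 0.40 (edgeR adjusted p = 5.26e-05). Gzmd stood at 1.69 and 0.561 CPM against 6.13 and 22.8 CPM, a difference of 3.74 ± 0.53 (edgeR adjusted p = 4.40e-05). For Gzmd and Gzme sgArid1a replicate 2 was well above sgArid1a replicate 1, and the 2 sgScr libraries also lay apart. As all-T-cell UMIs these were small numbers in the controls: sgScr replicate 2 held 18 UMIs of Gzmd and 35 of Gzme.

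Gzmg was listed at 0 UMIs in sgScr replicate 1, 2 UMIs in sgScr replicate 2, 11 in sgArid1a replicate 1 and 999 in sgArid1a replicate 2. The ratio of sgArid1a to sgScr was 285, with an exact 95% interval from 78.7 to 2357 that covers counting error only. The test called it higher (edgeR adjusted p = 0.00161). However, 991 of the 1012 Gzmg UMIs of the whole data set (97.9%) came from 1 exhausted-like cell of sgArid1a replicate 2. Cells with a Gzmg UMI numbered 0 and 1 in sgScr and 2 and 6 in sgArid1a. Without that cell Gzmg stood at 0.0990 CPM in sgArid1a replicate 2 and was too low to be tested.

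**Figure D1:**
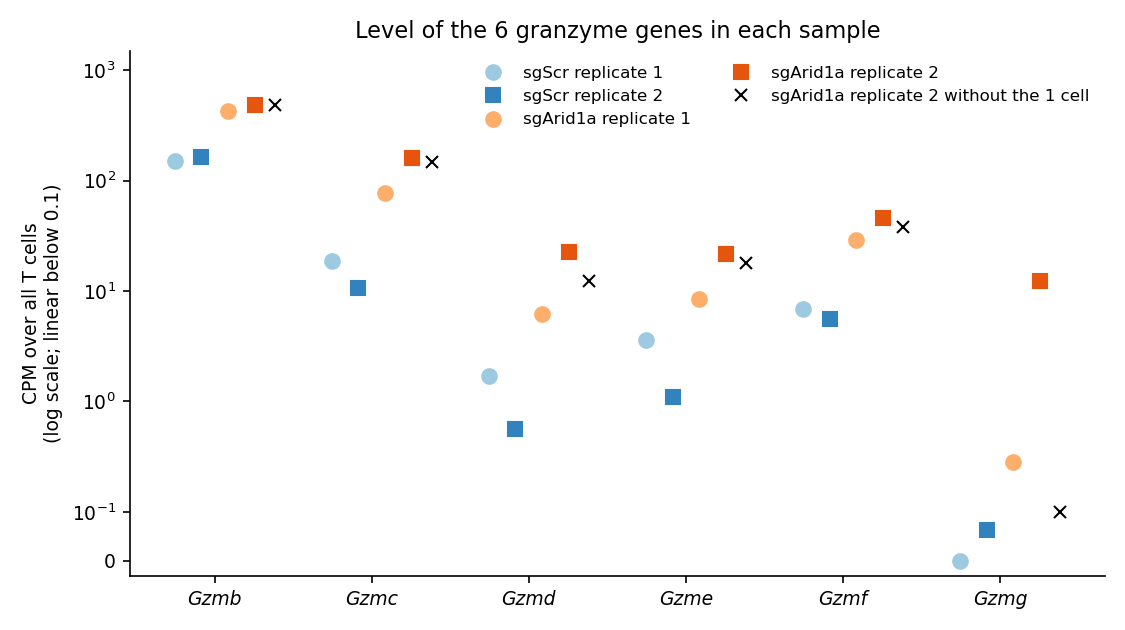
Level of each of the 6 genes over all T cells, in UMIs per 1000000 UMIs (CPM, log scale, linear below 0.1), 1 point per library; the cross is sgArid1a replicate 2 without the 1 cell with the most Gzmg UMIs. Both sgArid1a points lie above both sgScr points for every gene, and the cross drops to 0.0990 for Gzmg and to 12.3 for Gzmd.

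The same cell held 31043 UMIs, of which 12.9% came from the 6 genes. Its most abundant genes were Gzmc with 997 UMIs and Gzmg with 991, above Tmsb4x with 539. It had no detected Trbv segment. It supplied 849 of 2158 Gzmd UMIs (39.3%), 13.3% of those of Gzme, 12.3% of those of Gzmf, 5.91% of those of Gzmc and 0.339% of those of Gzmb. Without it the all-T-cell log2 differences were 3.08 for Gzmd, 2.54 for Gzme, 2.46 for Gzmf, 2.94 for Gzmc and 1.56 for Gzmb, and these 5 were still called.

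Few cells held most of the UMIs of the rarer members in the controls. In sgScr replicate 1 and 2 the 10 highest cells held 82.4% and 80.3% of the Gzmc UMIs, against 23.8% and 35.0% in sgArid1a. For Gzmf they held 98.4% and 98.3% against 38.1% and 44.3%. One exhausted-like sgScr replicate 1 cell alone held 146 of the 243 Gzmf UMIs of its library. Gzmb was spread more widely, with 18.3% and 16.4% in the 10 highest sgScr cells and 7.10% and 6.04% in the 10 highest sgArid1a cells. The number of cells with at least 1 UMI of Gzmc was 61 and 40 in sgScr and 443 and 729 in sgArid1a, so sgScr values of Gzmc to Gzmg rest on few cells. A fixed number of 10 cells is thus a larger part of these cells in sgScr, and its share does not compare concentration between groups. The highest cells that held 90% of the Gzmc UMIs numbered 19 of 61 and 18 of 40 in sgScr. In sgArid1a they numbered 198 of 443 and 187 of 729.

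**Figure D2:**
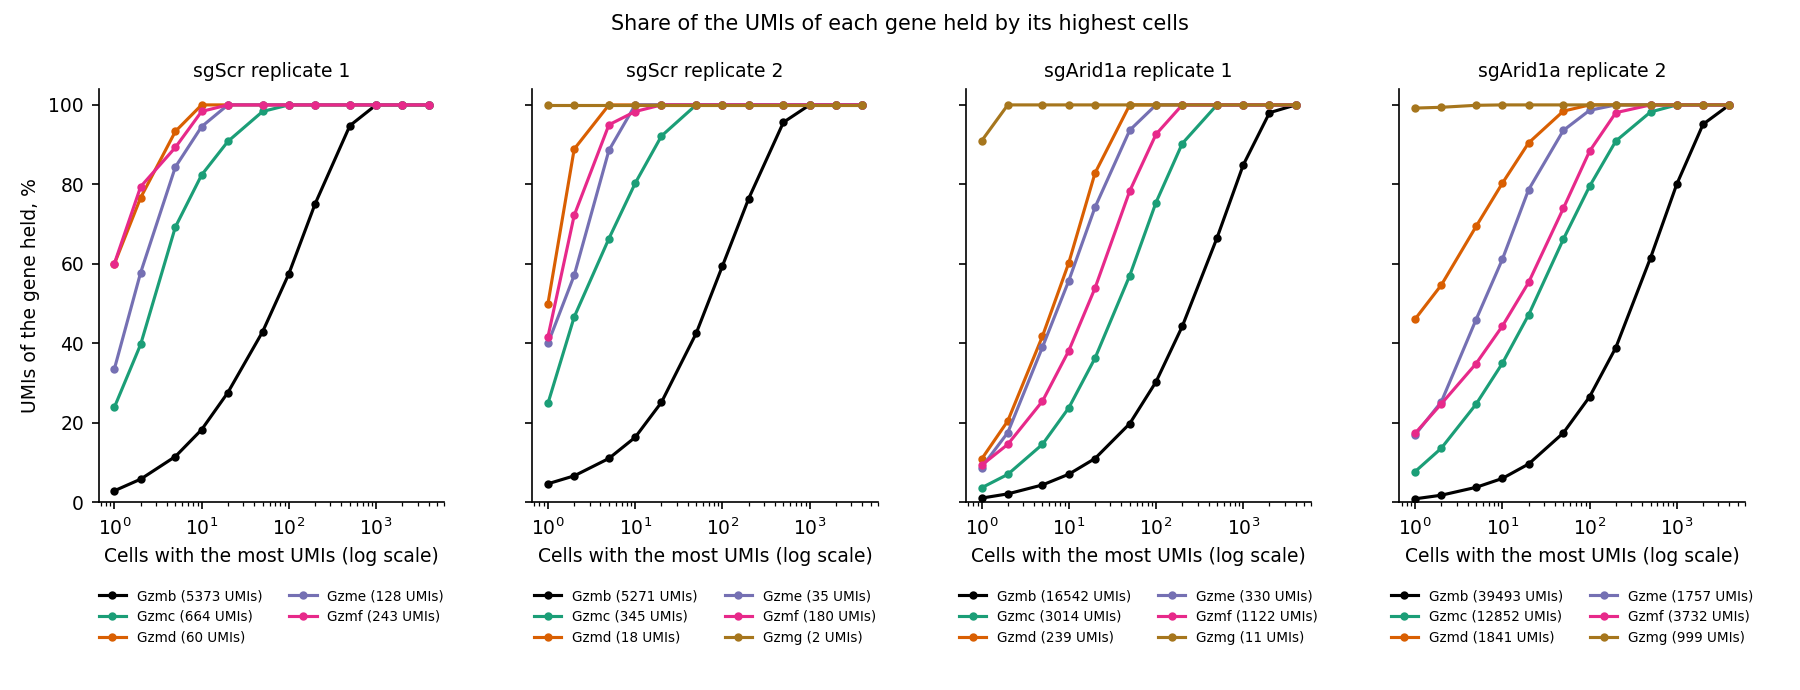
Share of the UMIs of each gene (%) held by its highest cells, against the number of those cells (log scale), 1 panel per library and 1 line per gene, with total UMIs in the legend. The Gzmb line rises slowest in all 4 libraries, and the 10 highest cells hold 82.4% and 80.3% of the Gzmc UMIs in sgScr but 23.8% and 35.0% in sgArid1a. Cells with Gzmc number 61 and 40 in sgScr and 443 and 729 in sgArid1a, so that 10 cells are a larger part of them in sgScr.

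Neighbouring genes gave little signal. Of 25 other annotated genes within 200 kb of the cluster 13 were in the matrices, 9 of these had no UMI and none reached the level needed for testing. Together they held 29 UMIs, 21 of them from Mcpt8, a basophil protease gene, and 1 from Gzmn, the granzyme gene that lies between Gzmg and Gzmf. The 6 members held 94251.

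To ask where in the T cell population the genes were read, cells were clustered without the 6 members among the clustering genes, so that no class was defined by them, and the clusters were named from marker lists. Naive/central memory-like cells made up 54.1% and 52.7% of sgScr T cells and 19.7% and 20.8% of sgArid1a T cells. Cycling-like cells made up 3.34% and 3.36% against 11.4% and 12.1%, and exhausted-like cells 4.38% and 4.99% against 8.95% and 9.21%. All 11 exhaustion markers were raised in the exhausted-like cluster, although its largest fold differences were those of Gzmg, Gzmd, Gzme and Gzmf themselves. Cluster 3, led by Cd163l1, G0s2 and Id3, and cluster 12, of low UMI number, were not named.

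Cycling-like and exhausted-like cells, together 15.9% of T cells, held most of the cluster's RNA. These cells were also deep, with a median of 13634 UMIs in cycling-like and 6665 in exhausted-like cells. Over all T cells the library medians ran from 2401 to 4016, so that both classes held a larger share of all UMIs than of cells. With the 4 libraries pooled both classes together held 85.2% of the UMIs of Gzmb, 92.9% of Gzmc, 97.0% of Gzmd, 96.0% of Gzme, 97.5% of Gzmf and 100% of Gzmg. This did not hold in every library. In sgScr replicate 2 early activated-like cells held 10 of 18 Gzmd UMIs (55.6%), 20 of 35 Gzme UMIs (57.1%) and 17.2% of the Gzmf UMIs. Over the 4 libraries together cycling-like cells held 57.4% of the Gzmb UMIs and exhausted-like cells 27.7%, and the cycling-like share of Gzmb was the larger in each library. In CPM the order was the reverse in each library. Gzmb stood at 688 and 682 CPM in sgScr and 814 and 1017 CPM in sgArid1a exhausted-like cells. In cycling-like cells it stood at 514 and 539 against 783 and 810 CPM. For the rarer members the split differed between libraries. The exhausted-like share of Gzmd was 81.7% and 5.56% in sgScr and 44.8% and 82.1% in sgArid1a, and the cycling-like share 16.7%, 38.9%, 55.2% and 14.9%. Of the 1669 exhausted-like Gzmd UMIs 849 came from the 1 cell described above. The exhausted-like share of Gzmf was 93.4% and 7.78% in sgScr and 43.8% and 52.3% in sgArid1a, and the cycling-like share 6.58%, 73.9%, 55.8% and 45.3%. Gzme likewise had the larger share in exhausted-like cells in sgScr replicate 1 (73.4%) and sgArid1a replicate 2 (66.2%) and in cycling-like cells in sgArid1a replicate 1 (57.9%), so that neither class led in every library for Gzmd, Gzme or Gzmf.

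**Figure D3:**
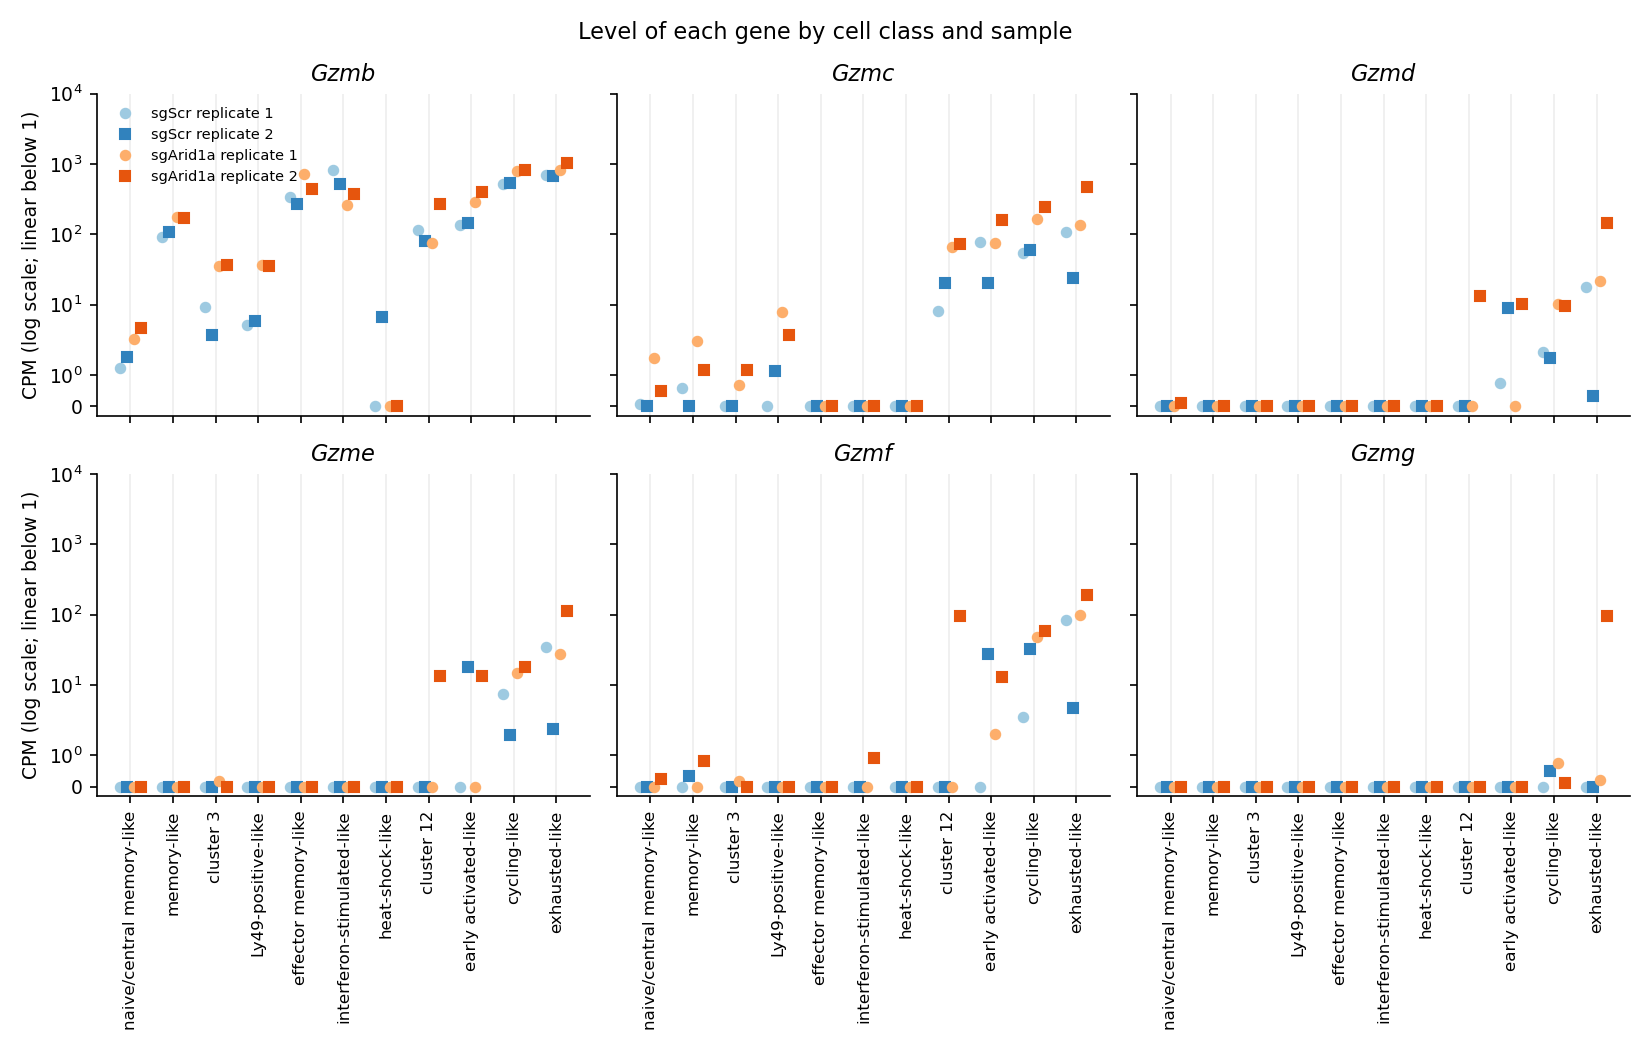
Level of each gene by cell class, in CPM (log scale, linear below 1), 1 point per library and class. Gzmb is read in many classes, whereas Gzmc to Gzmf are high in the cycling-like and exhausted-like classes and low or at 0 in the naive, memory-like and effector memory-like classes.

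In cycling-like cells all 5 members that could be tested were called higher in sgArid1a, where 3.91% of 10824 genes were called higher. Gzmb stood at 514 and 539 CPM in sgScr and 783 and 810 CPM in sgArid1a, a log2 difference of 0.68 ± 0.08 (edgeR adjusted p = 1.58e-06). Gzmc stood at 54.3 and 60.1 CPM against 164 and 245 CPM, a difference of 1.92 ± 0.13 (edgeR adjusted p = 3.35e-12). In both genes the groups lay apart. Gzmd stood at 2.16 and 1.72 CPM against 10.1 and 9.47 CPM (2.38 ± 0.29, edgeR adjusted p = 9.52e-07). Gzme stood at 7.33 and 1.97 CPM against 14.6 and 18.1 CPM (1.86 ± 0.26, edgeR adjusted p = 1.27e-05). Gzmf differed within sgScr, at 3.45 and 32.8 CPM, but both sgArid1a libraries were higher still, at 48.0 and 58.2 CPM (1.70 ± 0.30, edgeR adjusted p = 3.02e-04). With each cell thinned to 1500 UMIs the Gzme call was lost (1.78, edgeR adjusted p = 0.156), and Gzmd had too few UMIs to be tested.

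In exhausted-like cells the same 5 were called higher, against 3.78% of 9918 genes, but the libraries were less alike. Gzmb stood at 688 and 682 CPM in sgScr and 814 and 1017 CPM in sgArid1a, a log2 difference of 0.47 ± 0.09 (edgeR adjusted p = 7.96e-04), and without sgScr replicate 2 the adjusted p was 0.0582. Gzmc stood at 109 and 24.3 CPM against 135 and 473 CPM, a difference of 2.28 ± 0.39 (edgeR adjusted p = 3.94e-04). sgScr replicate 1 and sgArid1a replicate 1 lay close together, sgScr replicate 2 was the low one and sgArid1a replicate 2 the high one.

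The same order held for the other 3. Gzmd stood at 17.9 and 0.337 CPM in sgScr and 21.5 and 146 CPM in sgArid1a (3.39 ± 0.64, edgeR adjusted p = 9.85e-04), and without sgArid1a replicate 2 the call was lost (1.37, edgeR adjusted p = 0.103). Gzmf stood at 82.8 and 4.72 CPM against 98.5 and 189 CPM (1.83 ± 0.40, edgeR adjusted p = 0.00418), and it too was lost without sgArid1a replicate 2 (1.29, edgeR adjusted p = 0.0827). Gzme stood at 34.3 and 2.36 CPM against 27.7 and 113 CPM, so that its groups overlapped (2.11 ± 0.49, edgeR adjusted p = 0.00696). Its call was lost without sgScr replicate 2 (1.14, edgeR adjusted p = 0.183), without sgArid1a replicate 2 (0.73, edgeR adjusted p = 0.396) and after thinning (1.30, edgeR adjusted p = 0.192). Without the 1 cell described above the 5 were still called, and Gzmd gave 2.44 (edgeR adjusted p = 0.00104).

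In the other classes Gzmb was the member called, together with Gzmc in 1 of them. Early activated-like cells, led by Ccl1, Xcl1 and Csf2, had Gzmb at 134 and 143 CPM in sgScr and 291 and 403 CPM in sgArid1a (log2 1.40 ± 0.14, edgeR adjusted p = 4.78e-06), against 1.36% of genes called higher. Gzmc stood there at 78.3 and 20.5 CPM against 75.3 and 159 CPM, and its groups overlapped. It was called (1.32 ± 0.33, edgeR adjusted p = 0.0390), but not without sgScr replicate 2 (0.73, edgeR adjusted p = 0.397) or sgArid1a replicate 2 (0.66, edgeR adjusted p = 0.0530), nor after thinning to 1500 UMIs (1.07, edgeR adjusted p = 0.132). Gzmd, Gzme and Gzmf were not called there.

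Gzmb was low, with groups that lay apart, in 2 further classes. In Ly49-positive-like cells, which carry inhibitory killer lectin receptors, it stood at 5.21 and 5.80 CPM in sgScr and 36.2 and 34.9 CPM in sgArid1a (log2 2.72 ± 0.34, edgeR adjusted p = 4.09e-07; 2.12% of genes called higher). In cluster 3 it stood at 9.21 and 3.69 CPM against 35.8 and 36.4 CPM (2.48 ± 0.22, edgeR adjusted p = 7.58e-15; 3.18% called higher). In memory-like cells the levels were 91.7 and 108 CPM against 177 and 172 CPM (0.88 ± 0.08, edgeR adjusted p = 3.14e-08; 3.68% called higher). Within each class the sgArid1a libraries lay above the sgScr libraries and near each other.

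Naive/central memory-like cells had the lowest Gzmb of the tested classes, 1.25 and 1.81 CPM in sgScr and 3.21 and 4.63 CPM in sgArid1a (log2 1.5 ± 0.32, edgeR adjusted p = 0.0081; 3.9% called higher), and the adjusted p was 0.237 without sgArid1a replicate 2 and 0.101 without sgScr replicate 1. Effector memory-like cells had Gzmb at 339 and 272 CPM against 725 and 438 CPM (0.88 ± 0.16, edgeR adjusted p = 1.26e-05; 0.325% called higher), yet not 1 UMI of Gzmc to Gzmg. That call was lost without sgScr replicate 2 (edgeR adjusted p = 0.268), without sgArid1a replicate 1 (0.0724) and after thinning (0.390). In cluster 12 Gzmb stood at 116 and 80.4 CPM against 75.8 and 269 CPM and was not called (1.02, edgeR adjusted p = 0.211; 1.73% called higher), although without sgArid1a replicate 1 it was (1.58, edgeR adjusted p = 0.0056). Interferon-stimulated-like cells, too few in sgScr to be tested, went the other way in level, with 822 and 512 CPM in sgScr and 260 and 370 CPM in sgArid1a.

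Whether the group difference itself varied between classes was tested against naive/central memory-like cells. Each other class with at least 50 cells in every library was compared with them. Gzmb in exhausted-like cells was the only member and class called, and no other member or class was. In naive/central memory-like cells Gzmb was low, between 1.25 and 4.63 CPM. It rested on 19 and 24 UMIs in sgScr and on 13 and 39 in sgArid1a. The level of free RNA was not estimated, and its share of the difference in that class was not tested. For Gzmb the difference in exhausted-like cells was smaller by 0.98 on the log2 scale, at -0.98 ± 0.30 (edgeR adjusted p = 0.0388; 4.6% of 11062 genes called in either direction). The call was lost without sgScr replicate 1 (-0.71, edgeR adjusted p = 0.427), without sgScr replicate 2 (-1.26, edgeR adjusted p = 0.0654) and without sgArid1a replicate 2 (-0.83, edgeR adjusted p = 0.529).

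Because the classes had different sizes in the groups, the levels were also averaged over clusters at 1 common mix. Gzmb then stood at 235 and 240 CPM in sgScr and 351 and 395 CPM in sgArid1a, a log2 ratio of 0.65 against 1.53 at each library's own mix. Gzmc stood at 28.4 and 18.0 CPM against 63.0 and 128 CPM, a ratio of 2.0 against 2.92. Gzmf gave 1.61 against 2.41, Gzme 1.62 against 2.27 and Gzmd 2.35 against 2.86. In all 5 the sgArid1a libraries remained higher at the common mix, and the differences were smaller than at the own mix. Without the 1 cell Gzmd gave 1.73 and Gzmc 1.91.

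The share of cells with a UMI depends on depth, so each cell was thinned to 1500 UMIs. This left out 2.50% and 3.29% of the sgScr cells and 16.6% and 2.60% of the sgArid1a cells. Gzmb was then detected in 5.85% and 6.12% of sgScr T cells and in 16.6% and 16.1% of sgArid1a T cells. Without thinning the shares were 9.93%, 10.2%, 21.8% and 25.4%. In naive/central memory-like cells the thinned Gzmb shares stood at 0.0987% and 0.163% for sgScr and 0.457% and 0.620% for sgArid1a, far below the shares over all T cells. Median depths there were 3514, 3395, 2000 and 3004 UMIs. The level of free RNA was not estimated, and its part in these shares was not tested. The same class gave 0% and 0% for Gzmc in sgScr and 0.196% and 0.116% in sgArid1a. The smallest exact p for 2 against 2 libraries is 0.33.

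Gzmc was detected in 0.255% and 0.217% of thinned sgScr cells and in 2.02% and 2.20% of thinned sgArid1a cells, and Gzmf in 0.121% and 0.13% against 0.933% and 0.943%. In both genes the libraries of a group were close together in share, whereas their CPM differed within sgArid1a. Of sgArid1a replicate 1, which lost the most cells to thinning, 1216 of 1220 cycling-like and 940 of 955 exhausted-like cells were kept. The cells it lost therefore lay mostly in other classes, and their part in the closeness of the shares was not tested. Gzme was detected in 0.121% and 0.0578% against 0.371% and 0.395%, and Gzmd in 0.0403% and 0.0289% against 0.315% and 0.210%. Gzmg was detected in no thinned sgScr cell, which allows a share of up to 0.0403% and 0.0434%, and in 0.0225% and 0.00806% of sgArid1a cells, within those limits.

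The share differed between groups within classes too. In exhausted-like cells Gzmb was detected in 38.1% and 41.0% of sgScr and 50.7% and 51.9% of sgArid1a cells, and Gzmc in 3.02% and 1.40% against 4.79% and 6.63%. In cycling-like cells Gzmb was detected in 39.0% and 33.8% against 47.5% and 48.7%, and Gzmc in 1.57% and 2.92% against 9.05% and 11%. Gzmf in cycling-like cells went from 0.394% and 0.833% to 3.62% and 3.79%. Gzme in exhausted-like cells overlapped, at 2.42% and 0.281% against 1.70% and 2.15%, as its level did.

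Most cells with any member had Gzmb alone. Of 35659 thinned T cells 31171 had none of the 6, 3987 had 1, 363 had 2, 93 had 3, 27 had 4, 16 had 5 and 2 had all 6. Gzmb alone was seen in 3851 cells, Gzmb with Gzmc in 256, Gzmc alone in 99, Gzmb with Gzmf in 68, and Gzmb, Gzmc and Gzmf in 58. Cells with at least 3 members numbered 7 and 3 in sgScr and 55 and 73 in sgArid1a, or 0.0941% and 0.0434% against 0.618% and 0.588% of cells. Of these 138 cells 44.9% were exhausted-like and 50.7% cycling-like. Before thinning they had a median of 12874.5 UMIs, against 3451 in cells with none, and 13.8% against 10.7% carried more than 1 Trbv segment, a mark of doublets. The part of depth and doublets in these counts was not tested.

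**Figure D4:**
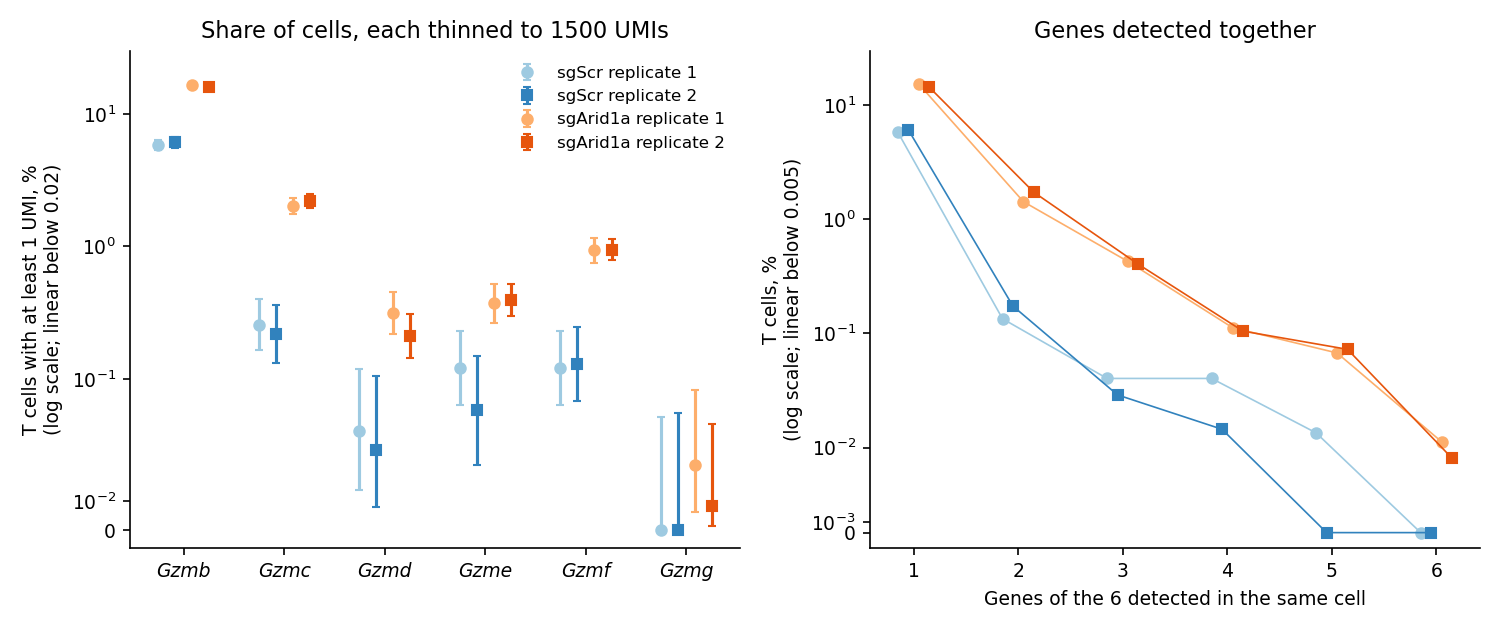
Left, share of T cells thinned to 1500 UMIs with at least 1 UMI of each gene (%, log scale, linear below 0.02; bars are 95% Wilson intervals, counting error only); right, share of T cells (%, log scale, linear below 0.005) by how many of the 6 genes were detected in the same cell. Both sgArid1a libraries lie above both sgScr libraries from 1 to 5 genes, and Gzmb is detected in 16.6% and 16.1% of sgArid1a cells.

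Members were found in the same cell more often than their separate shares give. In sgArid1a Gzmb and Gzmc met in 136 and 221 cells, 4.55 and 5.03 times the number expected if detection were independent. Within exhausted-like cells the ratio was 1.53 and 1.58 and within cycling-like cells 1.72 and 1.73, so that it was lower within a class than over all T cells. This ratio cannot exceed the inverse of the share of cells with Gzmb, and that share was higher within both classes. The odds ratio, which has no such limit, was 17.0 and 24.8 over all T cells. It was 3.59 and 4.54 in exhausted-like cells and 5.72 and 6.61 in cycling-like cells. The rarer pair Gzmc and Gzmf met in 38 and 59 sgArid1a cells, 22.6 and 22.9 times the expected number, and within exhausted-like cells that ratio was 8.47 and 6.64. The odds ratios of this pair were 51.6 and 57.4 over all T cells and 19.8 and 15.1 in exhausted-like cells. Gzmd and Gzme met in 16 and 17 cells, where 0.104 and 0.103 cells were expected, too few for a ratio to be read. They are the 2 genes closest in sequence, and the part of misassigned reads in these cells was not tested. In sgScr Gzmb and Gzmc met in 12 and 7 cells, where 1.11 and 0.918 were expected.

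Cells with a member of the C to G group but no Gzmb were not rare. They were 11 of 28 and 11 of 24 such cells in sgScr (39.3% and 45.8%) and 64 of 237 and 72 of 348 in sgArid1a (27.0% and 20.7%). Of the cells with Gzmc, 63.2% and 46.7% also had Gzmb in sgScr, and 75.6% and 81.0% in sgArid1a. At 1500 UMIs a gene can be missed in a cell that expresses it, so these are shares of cells without a Gzmb UMI and not of cells without the protease.

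Gzmb took a smaller part of the summed UMIs of the 6 genes in both sgArid1a libraries. It was 83.1% and 90.1% of it in sgScr and 77.8% and 65.1% in sgArid1a (86.6% ± 4.96 against 71.5% ± 9.0, SD, n = 2 each, exact permutation p = 0.33, the smallest possible). Gzmc was 10.3% and 5.90% against 14.2% and 21.2%, and Gzmf 3.76% and 3.08% against 5.28% and 6.15%. Gzme was 1.98% and 0.598% against 1.55% and 2.90%, so that it overlapped. In cycling-like cells Gzmb was 88.4% and 84.7% against 76.7% and 71.0%, and Gzmc 9.35% and 9.46% against 16.1% and 21.5%. In exhausted-like cells the groups overlapped, with Gzmb at 73.8% and 95.6% against 74.2% and 50.02% (exact permutation p = 0.667). Without the 1 cell the Gzmb share of sgArid1a replicate 2 in exhausted-like cells was 60.5%, and that over all T cells was 69.3%.

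**Figure D5:**
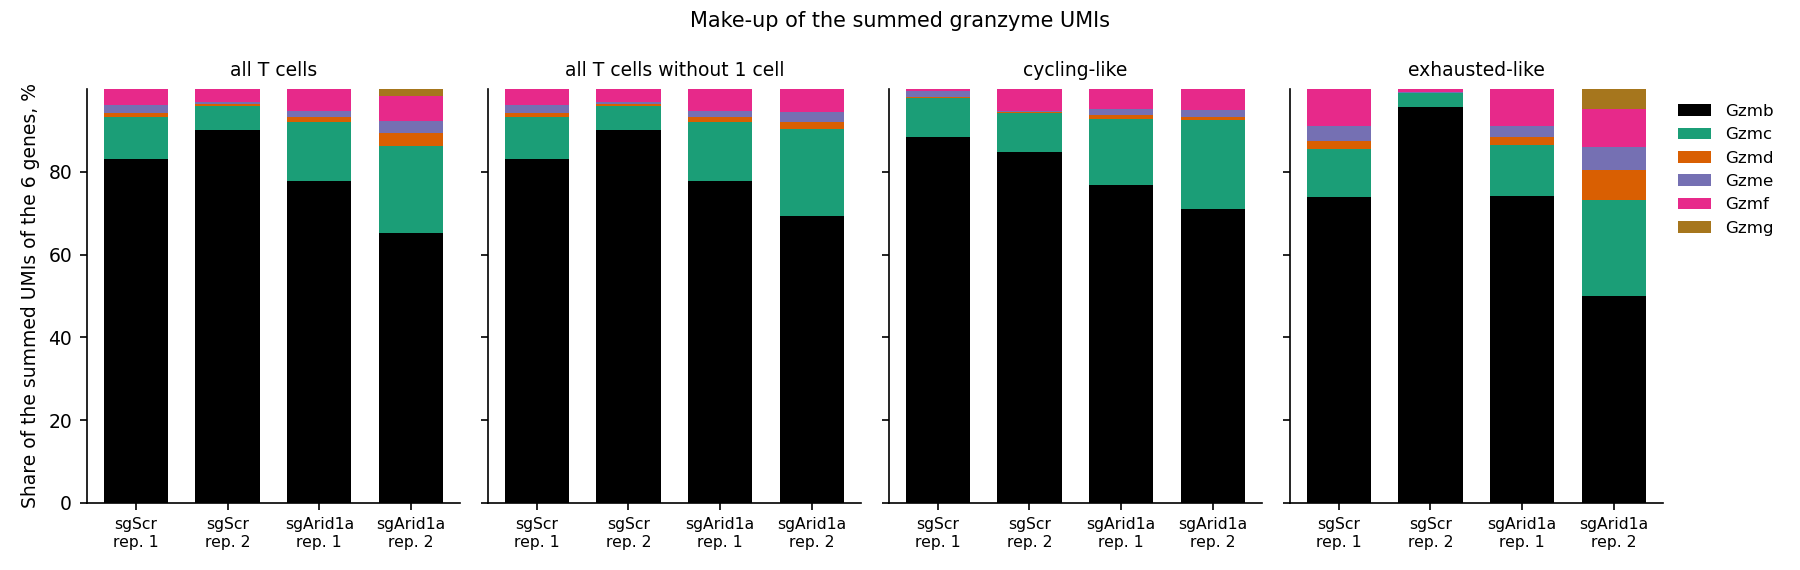
Share of the summed UMIs of the 6 genes (%) taken by each gene, 1 bar per library, over all T cells, over all T cells without the 1 cell with the most Gzmg UMIs, and in cycling-like and exhausted-like cells. Gzmb is the largest part of every bar, and its share over all T cells is 83.1% and 90.1% in sgScr and 77.8% and 65.1% in sgArid1a.

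The genes that act with granzymes were read from a list of 24 granule partners (perforin, other granzymes, inhibitors, the activating protease and the release machinery). Over all T cells 13 of the 23 tested were higher in sgArid1a, 3 were lower and 7 were not called, where 28.1% of all genes tested were called higher and 26.3% lower. The median log2 difference of the list was 0.22, against -0.02 over all genes tested. Prf1, the pore-forming perforin, rose by 1.04 ± 0.07 on the log2 scale, from 96.3 and 88.7 CPM to 176 and 198 CPM. Serpinb9, the intracellular inhibitor of granzyme B, stood at 32.2 and 31.9 CPM against 53.6 and 61.0 CPM (0.87 ± 0.07). Cst7, a cystatin that restrains granzyme-processing cathepsins, stood at 192 and 201 CPM against 332 and 333 CPM (0.79 ± 0.06). Gzmk, a tryptase-type granzyme encoded elsewhere in the genome, was lower, at 152 and 165 CPM against 115 and 121 CPM (-0.39 ± 0.06). The all-T-cell calls of M6pr, Srgn, Gzmm, Unc13d and Serpinb6b were each lost when 1 or another library was left out.

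In cycling-like cells 5 of 23 were higher, 3 lower and 15 not called, where 3.91% of all genes tested were called higher and 3.34% lower. Gzmk fell by 1.55 ± 0.08, from 371 and 402 CPM to 122 and 128 CPM, while Prf1 stood at 201 and 183 against 263 and 273 CPM (0.56 ± 0.09). Gzma, the main tryptase granzyme, was lower by the test (-1.77), but it stood at 22.2, 167, 17.0 and 32.6 CPM, and without sgScr replicate 2 the value was 0.27 (edgeR adjusted p = 0.579). The cycling-like calls of Serpinb6b, Serpinb9 and Ctsw were also each lost when 1 or another library was left out. In exhausted-like cells 3 of 22 were higher, 4 lower and 15 not called, against 3.78% and 3.53% of all genes tested. Gzmk stood there at 467 and 488 CPM in sgScr and 158 and 176 CPM in sgArid1a (-1.46 ± 0.08), Serpinb6b at 288 and 238 against 149 and 168 CPM (-0.67 ± 0.09) and Cst7 at 432 and 423 against 588 and 553 CPM (0.47 ± 0.08). The groups did not overlap in any of these 3, whereas the calls of Prf1, Ctsw, Rab27a and Stx11 in this class were each lost when 1 or another library was left out.

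Of 26 genes listed as regulators of granzyme genes, 12 were higher in sgArid1a over all T cells, 6 lower and 8 not called, with a median of 0.07, beside the 28.1% higher and 26.3% lower of all genes tested. Bach2, a repressor that restrains effector genes, stood at 55.6 and 58.5 CPM against 23.9 and 26.2 CPM (log2 -1.16 ± 0.06), and Tcf7, a factor of naive and stem-like cells, at 397 and 391 against 189 and 206 CPM (-0.97 ± 0.06). Il2ra, the high-affinity interleukin 2 receptor chain, stood at 6.78 and 8.07 against 18.7 and 17.1 CPM (1.30 ± 0.10). The all-T-cell calls of Notch2, Junb, Prdm1, Batf and Il2rg were each lost when 1 or another library was left out. In cycling-like cells 5 were higher, 5 lower and 16 not called (3.91% and 3.34% of all genes tested). Il2ra stood there at 13.6 and 18.7 against 30.03 and 26.7 CPM (0.89 ± 0.15), Il12rb2 at 5.82 and 7.14 against 15.5 and 15.5 CPM (1.34 ± 0.19) and the T-box factor Eomes at 127 and 103 against 50.4 and 48.0 CPM (-1.15 ± 0.10). The cycling-like calls of Junb, Prdm1, Batf and Il2rg were each lost when 1 or another library was left out. In exhausted-like cells 4 were higher, 4 lower and 18 not called (3.78% and 3.53% of all genes tested), with Eomes at 109 and 115 against 39.3 and 43.2 CPM (-1.37 ± 0.10) and Jun, an AP-1 subunit, at 52.9 and 42.1 against 77.6 and 79.7 CPM (0.79 ± 0.12). The other 6 calls in that class were each lost when 1 or another library was left out.

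The labelled cell type was checked by marker genes. In exhausted-like cells summed T cell genes stood at 6800 to 7095 CPM, and natural killer genes at 143 and 151 CPM in sgScr and 167 and 138 CPM in sgArid1a. Of these 7 genes only Ncr1 was at 0. Mast cell and basophil genes, from cells that also express granzyme-family proteases, summed there to 0.870 CPM or less, with 6 of 7 genes at 0. In cycling-like cells T cell genes summed to 4644 to 4900 CPM. Natural killer genes stood there at 149 and 118.5 CPM in sgScr and 109 and 110 CPM in sgArid1a, with none of 7 at 0. Mast cell and basophil genes summed there to 0.431 CPM or less, with 4 of 7 at 0.

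Patterns over classes were compared for description, over 36 points (9 classes by 4 libraries) that share libraries and depth. The genes whose level was most like Gzmb were Bcl2a1d (Pearson r = 0.916), Lgals3 (0.911) and S100a4 (0.910), and those most like Gzmc were Nrgn (0.960), Rgs16 (0.954) and Tnfrsf9 (0.926), among 5167 genes. Within the cluster Gzmb and Gzmc gave 0.631, whereas Gzmd, Gzme and Gzmf gave 0.940 to 0.978 with each other. Gzmc gave 0.771 to 0.794 with Gzmd, Gzme and Gzmf. Gzmd, Gzme and Gzmf were at or near 0 in naive/central memory-like, memory-like, cluster 3, Ly49-positive-like and effector memory-like cells, so their values rest on few classes. The cell with the most Gzmg UMIs was not left out here.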

How the data were processed

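Raw UMI counts per gene and barcode were used as the authors deposited them, 1 filtered matrix for each of 4 libraries made with a 5′ single-cell kit. The matrix headers name Cell Ranger 6.0.1, but Cell Ranger 3.0.2, Seurat and the mm10 build stand in the submitters' processing notes. For reads shared by near-identical genes the assignment rule was not found in the labels or headers.

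A barcode was kept if it had 500 genes or more and its mitochondrial share was 10% or less. Cells were clustered with scanpy 1.11.5 and leidenalg 0.10.2 (2000 variable genes without receptor, ribosomal, mitochondrial and sex-linked genes and without the 6 members, 30 components, 15 neighbours, resolution 0.8), named by markers raised at least 2-fold, and 133 cells of an MHC class II cluster were left out. No doublet caller was run; cells with more than 1 Trbv segment were left out as an alternative. UMIs were summed per library and class (at least 50 cells in every library) and tested with edgeR 4.0.16 in R 4.3.3, with DESeq2 1.42.0 as an alternative. On simulated data with 200 genes changed 2-fold among 12781, edgeR recovered 93.5% over all T cells. Shares have 95% Wilson intervals, which like the limit of 3 counts for a count of 0 cover counting error only. Common-mix ratios used a pseudocount of 1 CPM. Coding identity and promoter alignments used biopython 1.88. Promoters came from RefSeq (GRCm38.p6), where all 6 genes matched by symbol.

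Named genes were the 6 members, up to 6 of each list by smallest p, every annotated gene within 200 kb, and the 5 genes most like Gzmb and Gzmc among those of at least 20 CPM. The members and lists were chosen with earlier results of these data known. Alternatives changed the scaling, filters, clustering, thinning, cells and libraries used, and those on the 1 cell with most Gzmg UMIs, on counting cells with a UMI, on thinning within classes and on adding back the MHC class II cluster were chosen after seeing the data.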

Additional observations from a re-analysis of the deposited data

Results flagged for a closer look

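The sgArid1a minus sgScr difference of Gzmb was smaller in exhausted-like than in naive/central memory-like cells, by -0.98 on the log2 scale, where the difference between the classes was itself tested (edgeR adjusted p = 0.0388). No other member or class was called in these comparisons between classes. Leaving out 1 library gave adjusted p up to 0.529. Gzmb in naive/central memory-like cells stood at only 1.25 to 4.63 CPM. The level of free RNA was not estimated, and its part in this difference was not tested.

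The 133 cells of a cluster led by H2-Aa, H2-Eb1, Cd79a, H2-Ab1 and Lyz2 were left out of the main comparisons and entered only alternative runs, and members were above the control level there. In the 46 such cells of sgArid1a replicate 1 Gzmc stood at 1660 CPM, Gzmd at 512 CPM and Gzme at 523 CPM. In the 16 and 19 sgScr cells Gzmc stood at 12.1 and 0 CPM, and Gzmd and Gzme had no UMI. In the 52 cells of sgArid1a replicate 2 Gzmc stood at 194 CPM, Gzmd at 6.43 CPM and Gzme at 3.86 CPM, so that the sgArid1a libraries were far apart. These cells also had Cd3e at 783 to 957 CPM and Cd8a at 629 to 737 CPM, and whether they are doublets was not tested.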

How the results depend on the processing

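Over all T cells Gzmb, Gzmc, Gzmd, Gzme and Gzmf kept their direction and call under every alternative run, and Gzmg could not be tested under 5 of them. The differences between replicate 1 and replicate 2 were nearly uncorrelated between the groups (r = -0.0794 over genes). With only 2 libraries per group this cannot show whether the replicate numbers pair the samples. With the replicate block the 6 log2 differences were 1.56 (Gzmb), 2.95 (Gzmc), 3.53 (Gzmd), 2.60 (Gzme), 2.58 (Gzmf) and 7.56 (Gzmg), all called, with 7019 genes called against 6951. Thinning to 1500 UMIs left 3989 genes called, and counting cells with a UMI left 4086. Causes were not tested unless stated.

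Thinning left 3 members called higher in cycling-like cells in place of 5 (Gzmd could not be tested), 1 in early activated-like cells in place of 2 and 0 in effector memory-like cells in place of 1. Counting cells with a UMI left 3 in cycling-like and 3 in exhausted-like cells in place of 5, where Gzmd in both and Gzme in cycling-like cells could not be tested. At Leiden resolution 0.4, which gave no exhausted-like class, 5 were called in early activated-like and 2 in Ly49-positive-like cells, and resolution 1.2 gave no cycling-like class. Leaving out 1 library gave 0 to 1 in cluster 12, 1 to 2 in early activated-like, 0 to 1 in effector memory-like, 2 to 5 in exhausted-like, 1 to 2 in memory-like and 0 to 1 in naive/central memory-like cells, and 0 to 3 calls of a difference between classes.

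Uncalled or weak log2 differences changed sign. In early activated-like cells, where some libraries had no UMI and fitted values depend on the prior count, Gzme gave -0.39 with the replicate block and -0.73 without cells of 2 or more Trbv segments, and Gzmf gave 1.73 at resolution 0.4. Leaving out 1 library there gave -0.33 to 3.18 for Gzmd, -6.60 to 7.64 for Gzme (-0.93 without sgScr replicate 1) and -2.52 to 7.70 for Gzmf (0.06 without sgArid1a replicate 1). Gzmb gave -0.25 to 1.58 in cluster 12. The Gzmb difference between classes gave -0.24 to 0.17 (0.0048 without sgArid1a replicate 2) for early activated-like and -1.06 to 0.16 for effector memory-like against naive/central memory-like cells.

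Log2 ratios of shares of cells moved for Gzmb from 1.45 to 1.72 at 2500 UMIs, 1.23 not thinned and 1.73 with at least 2 UMIs. They moved for Gzmc from 3.16 to 3.35 at 1000 UMIs and 2.86 not thinned, and for Gzmd from 2.92 to 3.56 at 1000, 4.33 at 2500 and 3.64 with at least 2 UMIs. For Gzmf 2.90 became 4.17 at 1000, 4.38 at 2500, 3.36 not thinned and 3.19 with at least 2 UMIs. Thinning to 2500 UMIs left out 52.4% of the cells of sgArid1a replicate 1, against 16.4% and 19.5% in sgScr and 18.1% in sgArid1a replicate 2. Co-detection ratios in sgArid1a at 1000, 2500, not thinned and with at least 2 UMIs were 5.56, 3.34, 3.91 and 8.36 for Gzmb with Gzmc (4.79 at 1500). They were 5.19, 3.47, 4.07 and 7.36 for Gzmb with Gzmf (4.72), 25.5, 12.9, 14.5 and 37.0 for Gzmc with Gzmf (22.8), and 183, 96.0, 100.3 and 342 for Gzmd with Gzme (159.8, with under 1 cell expected at 1500). Without cells of 2 or more Trbv segments the last 2 pairs gave 24.1 and 169. The common-mix ratio of Gzmg was 2.64, 5.16 with a pseudocount of 0.1 and 0.12 without the 1 cell. Few UMIs of Gzmd, Gzme and Gzmg in sgScr limit their precision.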

Other observations

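Receptor segments took unequal parts of the granzyme RNA. Cells with Trbv20 numbered 160 and 138 in sgScr and 605 and 785 in sgArid1a. Gzmb stood in them at 61.5 and 27.4 CPM in sgScr and at 919 and 1095 CPM in sgArid1a, and Gzmc at 0 and 0 CPM against 204 and 403 CPM. Of these cells 3 and 1 were exhausted-like in sgScr and 196 and 251 in sgArid1a. Cells with Trbv13-1 numbered 458 and 436 against 1023 and 1340, with Gzmb at 258 and 227 CPM against 759 and 789 CPM and Gzmc at 36.2 and 5.17 CPM against 120 and 255 CPM.

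In the cells with another segment or none, Gzmb stood at 145 and 163 CPM in sgScr and at 269 and 311 CPM in sgArid1a, and Gzmc at 17.8 and 11.4 CPM against 48.0 and 94.3 CPM. Without the Trbv20 and Trbv13-1 cells Gzmb was still called over all T cells, at a log2 difference of 0.95 in place of 1.56, and Gzmc at 2.32 in place of 3.02, while Gzmd gave 4.81, Gzme 2.68 and Gzmf 2.41. The 1 cell with the most Gzmg UMIs had no detected segment and stayed in. It held 849 of the 1156 Gzmd UMIs left in sgArid1a replicate 2, and its part in the Gzmd value was not tested. In the exhausted-like cells of the other segments Gzmb stood at 667 and 656 CPM in sgScr and at 676 and 780 CPM in sgArid1a, libraries that lay closer together than over all segments. Whether cells of 1 segment belong to 1 clone was not tested.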
